A study of Homo sapiens with 6 samples.

Results

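Beta-catenin, encoded by CTNNB1, and 9 genes of the Wnt feedback loop (AXIN2, LGR5, NKD1, RNF43, ZNRF3, TCF7L2, LEF1, SP5 and NOTUM) were examined in Hep-G2 cells depleted of CLGN, a calcium-binding chaperone of the endoplasmic reticulum. The 10 genes were taken by symbol from a table of 58735 genes, a choice made by name with earlier results of these data known. Hep-G2 is an established line from a human liver tumour, labelled here as hepatocytes from HCC. RNA of 3 libraries with the control hairpin sh-NC, labelled WT, was compared with RNA of 3 libraries with the hairpin sh-CLGN, labelled as a CLGN knock down, and the label 0DAY was shared by all 6. Cells of both groups had received a lentivirus and puromycin, and 1 hairpin sequence was used per group, so an effect of CLGN and an effect of that hairpin cannot be told apart. The comparison asked which genes differ in level once CLGN is lowered. The labels do not say that the 3 libraries of a group came from separate cultures, so p-values measure only the spread between these libraries.

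In the absence of a Wnt ligand, beta-catenin is held by the scaffolds AXIN1, AXIN2 and APC, phosphorylated by the kinases CK1 and GSK3, and degraded. A Wnt ligand bound to a Frizzled receptor and to LRP5 or LRP6 halts this destruction, and beta-catenin then enters the nucleus and binds TCF and LEF factors at target genes. Several targets feed back on the pathway: AXIN2 rebuilds the destruction complex, RNF43 and ZNRF3 remove Frizzled from the cell surface, NOTUM inactivates the Wnt ligand and NKD1 acts on Dishevelled. In the liver the pathway is known for setting the pericentral programme of hepatocytes, which includes glutamine synthetase. Hep-G2 is known to carry an in-frame CTNNB1 deletion that spares the protein from degradation, which gene totals cannot show.

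CLGN stood at 24.1, 21.0 and 26.1 FPKM in sh-NC and at 9.48, 8.88 and 8.60 FPKM in sh-CLGN, that is at 37.8% of the control mean, so the labels were borne out in each library. FPKM counts fragments relative to a gene's length and to the size of the library, so levels of genes can be compared per length. That length is 1 value per gene in the deposited table, so the levels do not allow for which transcript is expressed. Totals were 14955816 to 16244639 reads per library. The sh-CLGN libraries held reads for 26814 to 27006 genes against 23578 to 23793 in sh-NC, and mitochondrial genes took 5.49% to 5.80% of their reads against 3.25% to 4.02%. The part of these differences in the results was not tested. The 10 hepatocyte markers were all tested and summed to 7076 to 7312 FPKM in sh-NC and 7174 to 7639 FPKM in sh-CLGN, but 3 were called higher and 6 lower (limma adjusted p of at most 0.05). AFP, the gene of alpha-fetoprotein, rose from 2670 ± 105 to 3782 ± 145 FPKM (SD, n = 3 each), while ALB, the albumin gene, fell from 2007 ± 70.9 to 1076 ± 27.7 FPKM and the transferrin gene TF from 181 ± 3.32 to 58.4 ± 0.483 FPKM. Of 10 fibroblast and stellate markers, 3 were tested and 3 were higher (LUM, COL3A1 and PDGFRB), their list summing to 3.32 to 3.87 FPKM in sh-NC and 7.88 to 8.41 FPKM in sh-CLGN, while DCN, THY1 and LRAT were near 0. LUM and COL3A1 passed the filter of 1 FPKM in 3 libraries only through sh-CLGN, so this count says little. The endothelial list summed to 31.0 to 35.6 and 18.6 to 20.3 FPKM, the immune list to 70.0 to 77.7 and 61.2 to 68.5 FPKM, and the bile duct list to 162 to 169 and 120 to 127 FPKM. Most of the endothelial sum came from EGFL7, at 30.1 ± 2.57 FPKM in sh-NC and 16.3 ± 0.897 FPKM in sh-CLGN. Most of the immune sum came from LYZ, at 72.9 ± 3.87 and 64.0 ± 3.63 FPKM. In the bile duct list 2 genes were called higher and 3 lower: SOX9 fell from 93.8 ± 2.07 to 36.9 ± 0.618 FPKM, whereas the keratin gene KRT19 rose from 37.3 ± 2.48 to 56.9 ± 2.64 FPKM and SPP1 from 1.58 ± 0.491 to 5.29 ± 0.618 FPKM. In the endothelial, immune and bile duct lists 8, 8 and 5 of 10 markers stayed under 1 FPKM in every library, with KDR, CLEC4G, CD163 and MS4A1 at 0 reads. The part of these markers in the results was not tested.

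A total of 13074 genes reached 1 FPKM in 3 or more libraries and were tested, of which 26.7% were called higher and 39.0% lower in sh-CLGN, where a call is a limma adjusted p of at most 0.05. In 6.28% of them the call came with a change of 1 or more on the log2 scale, up or down (both thresholds), and in 70.2% the libraries of the groups did not overlap. The median log2 fold change of all these genes was -0.08 with the deposited scaling, 0.03 as TPM and 0.08 with scaling by read totals. The library size behind the deposited FPKM differed from the read total by a factor that went with the group. This factor was 0.933, 0.940 and 0.953 for the sh-NC libraries, whereas the sh-CLGN libraries had 1.08, 1.08 and 1.07. Against scaling by read totals, the deposited scaling thus lowers the sh-CLGN values and raises the sh-NC values of every gene. The split of 3496 genes higher and 5102 lower became 4285 and 3923 as TPM, and 4956 and 3421 with read totals. Other fits set the distributions of the libraries equal (quantile normalization), removed the trend of the log2 fold change with the GC content of transcripts, or modelled the reads recovered from FPKM (voom).

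Of the 10 genes, 9 were tested and NKD1 was below the filter. LGR5, LEF1 and RNF43 were called higher, TCF7L2, NOTUM and ZNRF3 lower, and CTNNB1, AXIN2 and SP5 were not called. LGR5 alone passed both thresholds on the log2(FPKM + 1) scale. LEF1 passed the filter only through sh-CLGN and NOTUM only through sh-NC, so the filter had selected on the group in which each was high. The share called in each direction, 3 of 9, lay near the background of all genes. The libraries of the groups did not overlap for 7 of the 10, the 6 called genes and CTNNB1, a share close to the 70.2% of all genes tested. A lower level per cell and fewer cells with a gene's RNA cannot be told apart in these bulk libraries.

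**Figure D1:**
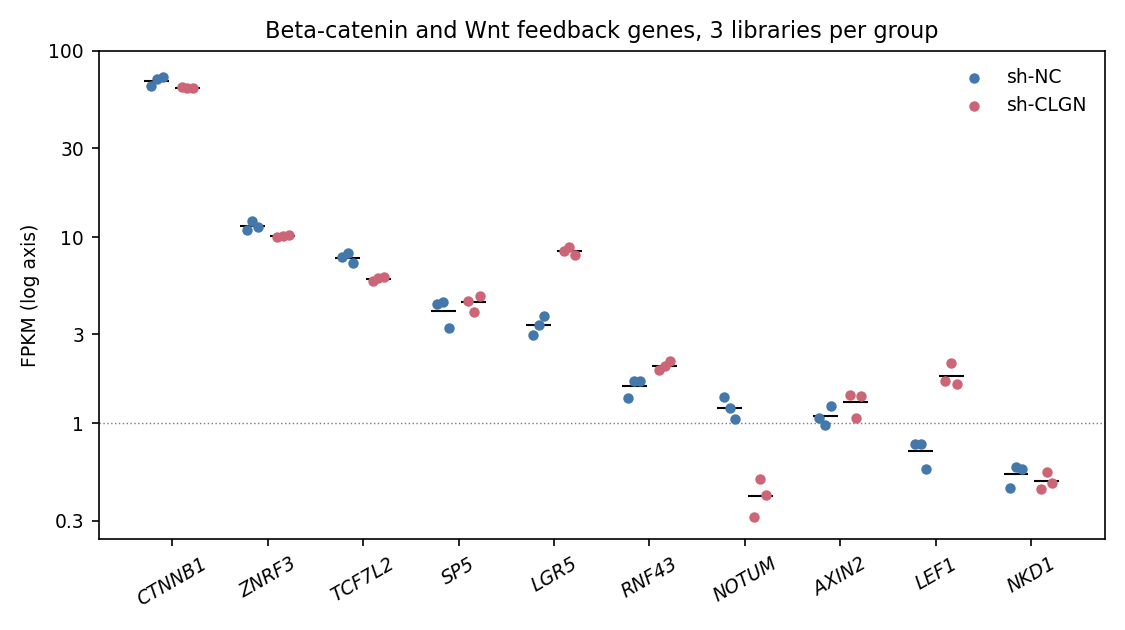
Level of the 10 genes in each library, in FPKM on a log axis, ordered by the sh-NC mean. Points are single libraries (3 sh-NC in blue, 3 sh-CLGN in red), black lines are group means and the dotted line marks 1 FPKM. LGR5 and LEF1 lie higher and NOTUM lower in sh-CLGN with a clear gap, while the points of AXIN2, SP5 and NKD1 overlap.

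The levels spanned a wide range, and their order depends in part on the gene lengths used, from 2060 bases for SP5 to 17425 for NKD1. In sh-NC the order was CTNNB1, ZNRF3, TCF7L2, SP5, LGR5, RNF43, NOTUM, AXIN2, LEF1 and NKD1, from 69.1 ± 3.71 FPKM (SD, n = 3) for CTNNB1 to 0.535 ± 0.0754 FPKM for NKD1. Neighbours whose libraries overlapped were SP5 and LGR5, RNF43 and NOTUM, NOTUM and AXIN2, and LEF1 and NKD1. In sh-CLGN the order was CTNNB1, ZNRF3, LGR5, TCF7L2, SP5, RNF43, LEF1, AXIN2, NKD1 and NOTUM, with overlap between RNF43 and LEF1 and between NKD1 and NOTUM. LGR5 thus stood below TCF7L2 in each sh-NC library and above it in each sh-CLGN library, and NOTUM moved from the seventh place to the last.

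LGR5 (ENSG00000139292, chr12:71439770-71586310 on GRCh38, plus strand) encodes a receptor for R-spondins, which strengthen Wnt signalling by clearing RNF43 and ZNRF3 from the membrane. It stood at 2.99, 3.38 and 3.78 FPKM in sh-NC and at 8.43, 8.81 and 7.99 FPKM in sh-CLGN. Each sh-CLGN library was higher than each sh-NC library, and the mean rose 2.49-fold. The log2 fold change on the log2(FPKM + 1) scale was 1.11 with an SE of 0.0791 (adjusted p = 1.5e-05), and it stayed between 1.04 and 1.37 over the alternatives and left-out libraries. The reads behind it were 219 to 307 in sh-NC, against 677 to 758 in sh-CLGN. TSPAN8, a tetraspanin gene on the opposite strand that overlaps the start of LGR5, stood at 11.6 to 13.3 FPKM in sh-NC and 13.9 to 14.6 FPKM in sh-CLGN, and the strand setting of the counting is not given in the sources used here.

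The membrane E3 ligases RNF43 and ZNRF3, which mark Frizzled receptors for removal, differed in direction. RNF43 (ENSG00000108375, chr17:58352500-58417595, minus strand) stood at 1.38, 1.70 and 1.70 FPKM in sh-NC and at 1.92, 2.03 and 2.17 FPKM in sh-CLGN. Its rise of 0.23 (SE 0.0861, adjusted p = 0.042) was small, and the call was lost with the replicate number as a block (adjusted p = 0.059), with quantile normalization (0.27), with no filter (0.098), with a mean of at least 0.1 FPKM as the filter (0.058) and in 5 of the 6 fits that left out 1 library (up to 0.13), all except that without sh-NC library 3. With the GC trend removed the rise was 0.45. AC004687.2, a protein-coding gene on the same strand whose span covers that of RNF43, held 0 to 4 reads per library. SUPT4H1, on the same strand, and TSPOAP1-AS1, on the opposite strand, also overlap RNF43 and held 0 to 1 and 0 to 2 reads. How reads shared by these genes were counted is not given in the sources used here. Their part in the level of RNF43 was not tested.

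ZNRF3 (ENSG00000183579, chr22:28883592-29057487, plus strand) was the more abundant ligase, at 11.0, 12.2 and 11.3 FPKM in sh-NC and at 9.95, 10.1 and 10.2 FPKM in sh-CLGN. The fitted difference was -0.17 (SE 0.0558, adjusted p = 0.027) with the deposited scaling, but -0.06 as TPM, -0.02 with quantile normalization, 0.0077 with read totals and 0.069 with the GC trend removed, and none of these 4 passed the test. The call was also lost with the replicate number as a block (adjusted p = 0.056) and without sh-NC library 2 or any 1 of the sh-CLGN libraries (0.058 to 0.084). The direction of ZNRF3 therefore depended on the scaling.

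Within a library the share of the 2 ligases does not change with a single factor per library, as in TPM or read totals. Quantile normalization and removal of the GC trend are no such factor, and shares were not computed under them. RNF43 made up 11.1%, 12.2% and 13.0% of their summed FPKM in sh-NC, against 16.2%, 16.7% and 17.5% in sh-CLGN, without overlap. The sum was 13.1 ± 0.797 FPKM in sh-NC and 12.1 ± 0.257 FPKM in sh-CLGN (SD, n = 3 each).

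NOTUM and NKD1 encode inhibitors that act on the ligand and on Dishevelled. NOTUM (ENSG00000185269, chr17:81952507-81961840, minus strand), a secreted enzyme that removes the lipid of Wnt proteins, stood at 1.38, 1.20 and 1.05 FPKM in sh-NC and at 0.312, 0.505 and 0.410 FPKM in sh-CLGN. Each sh-CLGN library was below each sh-NC library, and the sh-CLGN mean was 33.8% of the control mean. It fell by 0.65 on the log2(FPKM + 1) scale (SE 0.108, adjusted p = 0.001). As NOTUM passed the filter only through sh-NC, this test is not free of that selection. With the pseudocount of 0.1 the fold change was -1.37 and with voom on the reads -1.56, whereas it shrank to -0.32 (adjusted p = 0.028) once the GC trend was removed. These values rest on 49 to 58 reads per library in sh-NC, against 16 to 25 in sh-CLGN, and with 67.0% GC the transcripts of NOTUM were among the most GC-rich of the 10.

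NKD1 (ENSG00000140807, chr16:50548330-50649249, plus strand) did not reach 1 FPKM in any library. It stood at 0.448, 0.586 and 0.571 FPKM in sh-NC and at 0.447, 0.550 and 0.480 FPKM in sh-CLGN, over 109 to 157 reads, and the groups overlapped. Its FPKM was computed over 17425 bases, the longest of the 10. In the voom fit on genes with at least 10 reads in all libraries together, which was added after the data were seen, its log2 fold change was -0.12 (SE 0.142, adjusted p = 0.49), where 26.1% of 22042 genes were called higher and 25.4% lower.

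AXIN2 (ENSG00000168646, chr17:65528563-65561647, minus strand), a scaffold of the destruction complex and a widely used readout of beta-catenin activity, stood at 1.07, 0.983 and 1.24 FPKM in sh-NC and at 1.42, 1.07 and 1.40 FPKM in sh-CLGN. The second sh-CLGN library lay within the control range. The difference of 0.13 (SE 0.101) did not pass the test (adjusted p = 0.29), and 75 to 126 reads per library lay behind it. With the GC trend removed it was 0.35 and passed (adjusted p = 0.019), and with quantile normalization it was -0.054. AC004805.1, a protein-coding gene on the same strand (chr17:65538102-65641033), overlaps AXIN2 and had 0 reads in each library. The part of reads shared by these genes in the level of AXIN2 was not tested.

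CTNNB1 itself (ENSG00000168036, chr3:41194741-41260096, plus strand) stood at 64.9, 70.4 and 71.9 FPKM in sh-NC and at 63.7, 63.3 and 63.1 FPKM in sh-CLGN. The sh-CLGN libraries lay just below the lowest control library, at 91.7% of the control mean, with 10798 to 13275 reads per library. The difference of -0.12 (SE 0.0511) did not pass the test (adjusted p = 0.066). It passed as lower with voom on reads (adjusted p = 0.045) and without sh-NC library 1 (0.017), passed as higher with quantile normalization (0.16, adjusted p = 0.043), and was 0.0039 as TPM and 0.071 with read totals. The direction for CTNNB1 was thus not fixed by these data. ULK4, which overlaps CTNNB1 on the opposite strand, held 67 to 117 reads per library.

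**Figure D2:**
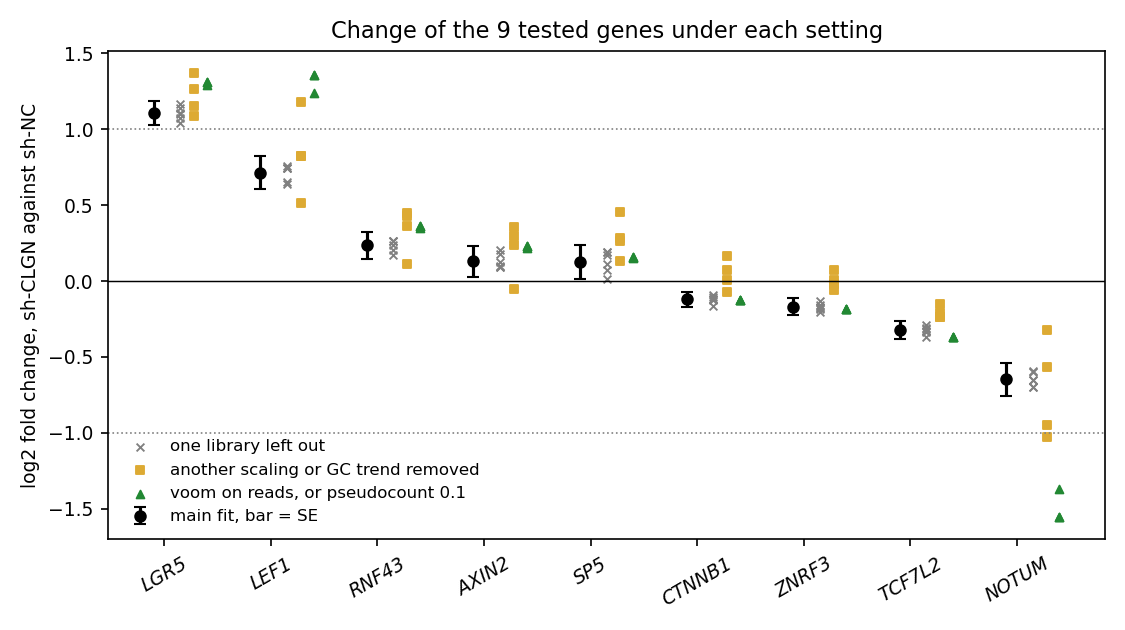
Log2 fold change of the 9 tested genes, sh-CLGN against sh-NC, on the vertical axis. Black points are the reported values with their SE, grey crosses leave out 1 library, yellow squares use another scaling or remove the GC trend, green triangles use voom on reads or a pseudocount of 0.1, and dotted lines mark 1 and -1. LGR5, LEF1, TCF7L2 and NOTUM keep their side of 0 throughout, as do RNF43 and SP5, whereas AXIN2, CTNNB1 and ZNRF3 cross it.

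TCF7L2 and LEF1 encode the DNA-binding partners of beta-catenin, and they moved in opposite directions. TCF7L2 (ENSG00000148737, chr10:112950250-113167678, plus strand) stood at 7.79, 8.18 and 7.22 FPKM in sh-NC and at 5.80, 6.0 and 6.10 FPKM in sh-CLGN. The groups did not overlap, and the sh-CLGN mean was 77.2% of the control mean. TCF7L2 fell by 0.32 (SE 0.0607, adjusted p = 0.002), and the fold change ranged from -0.37 to -0.15 over the alternatives, the smallest with read totals (adjusted p = 0.049).

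LEF1 (ENSG00000138795, chr4:108047545-108168956, minus strand) stood at 0.775, 0.779 and 0.567 FPKM in sh-NC and at 1.68, 2.11 and 1.63 FPKM in sh-CLGN. Each sh-CLGN library was over each control library, on 141 to 185 reads against 47 to 61, and the mean rose 2.55-fold. On the log2(FPKM + 1) scale, which understates changes of low genes, the rise was 0.72 (SE 0.106, adjusted p = 0.00057). It was 1.24 with a pseudocount of 0.1, 1.18 as TPM, 1.36 with voom on the reads and 0.52 with quantile normalization, and it passed the test in each. As LEF1 passed the filter only through sh-CLGN, these tests are not free of that selection. LEF1-AS1, antisense to the start of LEF1, held 1 to 5 reads per library.

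The 2 related factors were tested as part of a list of nuclear partners. TCF7L1, which often acts as a repressor, rose from 5.26 ± 0.439 to 7.99 ± 0.278 FPKM (SD, n = 3 each; log2 fold change 0.52, adjusted p = 0.00029), while TCF7 was not called (0.16, adjusted p = 0.063). Within each library, TCF7L2 made up 45.3%, 47.4% and 47.2% of the summed FPKM of the 4 factors in sh-NC, against 31.3%, 31.1% and 31.3% in sh-CLGN. TCF7L1 made up 31.2% to 32.7% in sh-NC, against 41.1% to 42.5% in sh-CLGN, so that the leading factor was TCF7L2 in each control library and TCF7L1 in each sh-CLGN library. LEF1 made up 3.70% to 4.52% and 8.36% to 10.9%, and the share of TCF7 overlapped between groups. The sum of the 4 was 16.6 ± 1.10 FPKM in sh-NC and 19.1 ± 0.520 FPKM in sh-CLGN. These shares, like those of the ligases, were computed after the values of the genes had been seen and are given with no test. They rest on the gene lengths used, which were 10063 bases for TCF7, 5361 for LEF1, 4414 for TCF7L1 and 6736 for TCF7L2.

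**Figure D3:**
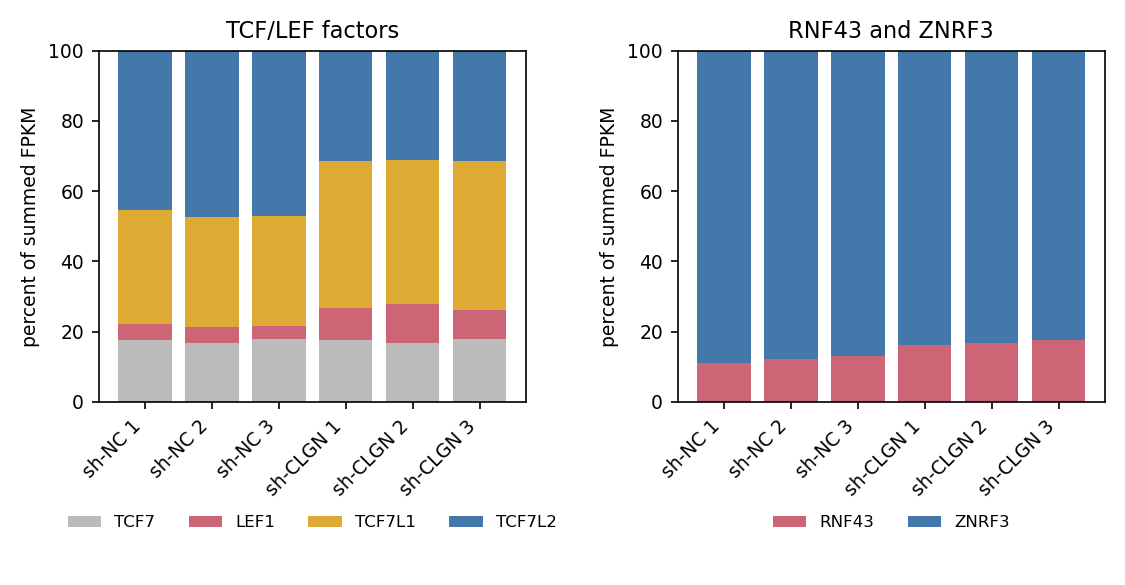
Share of each gene in the summed FPKM of its family, in percent, for each of the 6 libraries: TCF7, LEF1, TCF7L1 and TCF7L2 on the left, RNF43 and ZNRF3 on the right. TCF7L2 falls from 45.3% to 47.4% in sh-NC to 31.1% to 31.3% in sh-CLGN, and the RNF43 share lies at 11.1% to 13.0% and 16.2% to 17.5%.

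SP5 (ENSG00000204335, chr2:170715351-170718078, plus strand) encodes a zinc finger repressor that is a direct target of beta-catenin. It stood at 4.35, 4.46 and 3.26 FPKM in sh-NC and at 4.55, 3.97 and 4.84 FPKM in sh-CLGN, and the groups overlapped. Its difference of 0.12 (SE 0.110) did not pass the test (adjusted p = 0.35). It was 0.45 with the GC trend removed (adjusted p = 0.00031) and 0.28 with read totals (adjusted p = 0.045), and at 67.2% GC its transcripts were the most GC-rich of the 10, those of LGR5 being the least at 44.0%. Without sh-NC library 3 the difference was 0.01.

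Promoter windows of 300 bases, 250 before and 50 after an annotated start, were at hand for 5 of the 10 genes. They came from a set of RefSeq windows on GRCh38.p14. A gene missing from this set may still have an annotated start. The windows were searched on both strands for the TCF and LEF letters CTTTGNN with A or T in place of each N. Of 8 windows of CTNNB1, RNF43, TCF7L2, LEF1 and SP5, 2 held a match, against 13.8% of all 35116 windows in the set. The SP5 window held 3 matches, from its bases 103, 142 and 167, and a count of 3 or more was found in 0.179% of all windows. It is shown because it carried the most matches among the 5 genes searched while SP5 itself was not called. The window lies at chr2:170715087-170715386 on the plus strand, and capitals mark the matches, the first and last of them read on the minus strand.
SP5: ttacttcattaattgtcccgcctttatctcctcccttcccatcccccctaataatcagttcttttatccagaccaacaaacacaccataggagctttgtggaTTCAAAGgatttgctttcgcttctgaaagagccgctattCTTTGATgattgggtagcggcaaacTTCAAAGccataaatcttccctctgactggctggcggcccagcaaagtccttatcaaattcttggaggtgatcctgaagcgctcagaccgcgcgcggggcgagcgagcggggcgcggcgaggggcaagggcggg
The other match, CTTTGTT, lay in a window at an internal start of TCF7L2, and the windows of CTNNB1, RNF43 and LEF1 held none of these letters. The windows of CTNNB1 (chr3:41199255-41199554) and LEF1 (chr4:108166252-108166551) lay inside the gene spans given above. The outermost starts of these genes were therefore not searched.

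Annotated 3' UTRs were searched for heptamers that pair with the seed of the sh-CLGN guide, as the study's hairpin sequence gives it. TACCACA was found in 10.8% and ATACCAC in 7.90% of 10880 tested genes with a UTR of at least 50 bases. Neither was found in any of the 10 genes, which bears on these UTRs only.

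The rest of the pathway was described by 9 lists, and their members that could be tested are counted below beside the 26.7% higher and 39.0% lower of all genes. Of 178 genes listed, 113 were tested, of which 26 were called higher and 60 lower, with a median log2 fold change of -0.22 against -0.08 for all genes. Some genes, such as CDH1 and NKD2, sit in several lists and are counted once in these totals. CXXC4 and CPS1 passed the filter only through sh-CLGN, and FZD6 and NKD2 only through sh-NC, as 562 and 162 of all genes tested did, so the filter had selected these 4 on the group in which they were high. The counts were 31 and 44 as TPM, 38 and 41 with read totals, and 37 and 49 with the GC trend removed, so the balance between directions moved with the scaling.

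**Figure D4:**
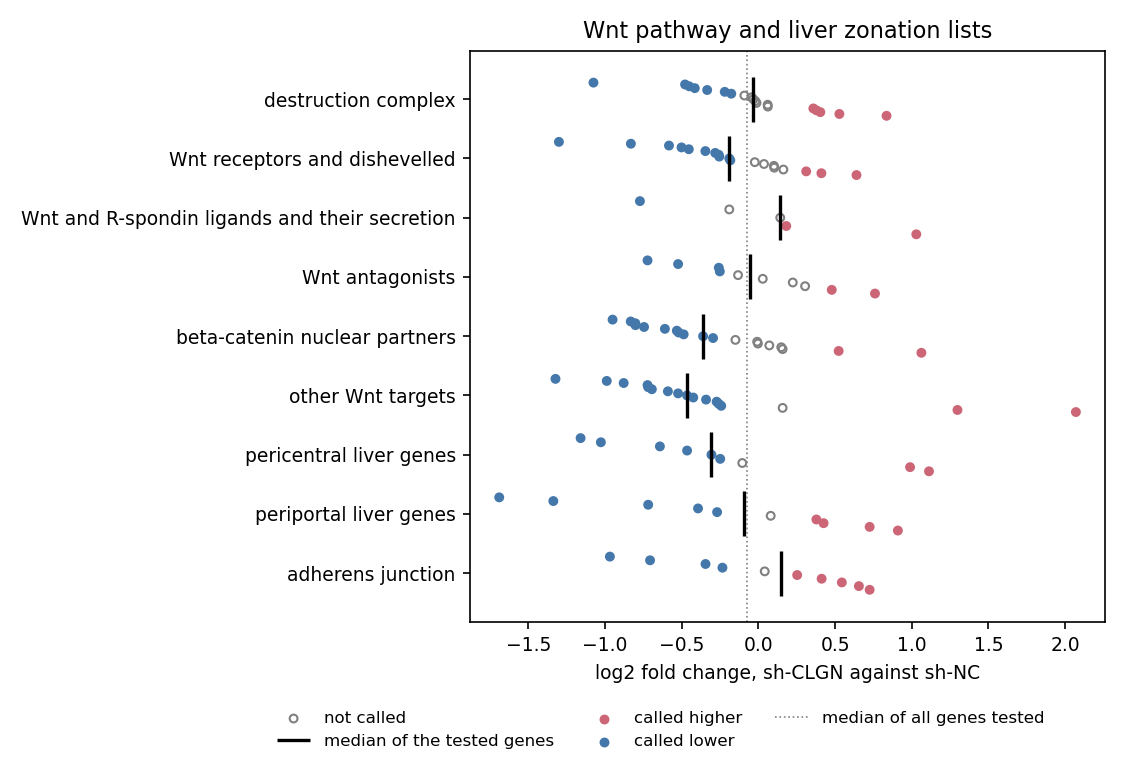
Log2 fold change, sh-CLGN against sh-NC, of each tested gene in 9 lists. Filled red and blue points were called higher and lower, open points were not called, black bars are list medians and the dotted line is the median of all genes tested (-0.08). The other Wnt targets lie mostly to the left with a median of -0.47, with CD44 at 2.07 and TNFRSF19 at 1.30 far to the right.

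Few ligands were expressed. Of 25 genes for Wnt and R-spondin ligands and their secretion, 5 were tested, 2 were called higher and 1 lower. WNT11, a ligand best known for signalling without beta-catenin, rose from 1.51 ± 0.112 to 4.13 ± 0.284 FPKM (1.03, adjusted p = 1.8e-05), and WNT3 fell from 3.25 ± 0.298 to 1.48 ± 0.0670 FPKM (-0.77, adjusted p = 8.6e-05). The carrier WLS was called higher at 0.18 (adjusted p = 0.035), a call lost with the replicate block (0.077) and in 5 of 6 fits without 1 library. That call was kept in 7 of the 12 alternatives. The R-spondin genes RSPO1, RSPO2 and RSPO3, which encode ligands of LGR5, had 0 reads in each library, where 3 reads is the limit that a count of 0 allows. RSPO4, the other R-spondin gene listed, held 1 read each in sh-CLGN libraries 1 and 3.

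Of 23 genes for Wnt receptors and Dishevelled, 19 were tested, 3 were called higher and 11 lower, with a median of -0.19. LGR4, the relative of LGR5, rose from 34.7 ± 3.18 to 54.5 ± 0.925 FPKM (0.64, adjusted p = 9.3e-05) and remained the more abundant, at 86.3% to 87.1% of the summed FPKM of LGR4, LGR5 and LGR6 in sh-CLGN against 90.8% to 91.5% in sh-NC. The receptor FZD6 fell from 3.36 ± 0.286 to 0.766 ± 0.0670 FPKM (-1.30, adjusted p = 1.0e-05), past both thresholds, and by 2.12 with voom. As it passed the filter only through sh-NC, this test is not free of that selection. The co-receptor LRP5 fell from 111 ± 11.7 to 62.0 ± 5.27 FPKM (-0.83, adjusted p = 0.00011; -0.53 with quantile normalization), while LRP6 was not called (0.16, adjusted p = 0.093). FZD5 fell by 0.35 on the log2 scale, and FZD2 and FZD8 rose by 0.41 and 0.31, the calls of these 3 being lost with quantile normalization, and those of FZD2 and FZD8 also in 2 and 4 of the 6 fits without 1 library.

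The destruction complex held 19 tested genes of 21, of which 5 were called higher and 7 lower, with a median of -0.03. AXIN1, the scaffold that limits assembly of the complex, fell from 6.06 ± 0.435 to 2.35 ± 0.144 FPKM (-1.08, adjusted p = 1.2e-05), past both thresholds with the deposited scaling, and by 0.78 at the least over the alternatives. The kinase genes CSNK1E and CSNK1D fell by 0.48 and 0.45 on the log2 scale, and with the GC trend removed by 0.22 and 0.20. GSK3B rose by 0.38, and the phosphatase subunit PPP2R5A rose by 0.84. USP34, a deubiquitinase that acts on AXIN, rose by 0.53, or by 0.34 with the GC trend removed.

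Of 23 Wnt antagonists, 10 were tested, 2 were called higher and 4 lower, with a median of -0.05. DKK1, a secreted blocker of LRP5 and LRP6, fell from 37.3 ± 0.334 to 25.6 ± 1.07 FPKM (-0.52, adjusted p = 4.8e-05; -0.25 with quantile normalization). NKD2, the relative of NKD1, fell from 1.26 ± 0.198 to 0.366 ± 0.106 FPKM (-0.72, adjusted p = 0.0008; -0.40 with the GC trend removed and -1.79 with voom), having passed the filter only through sh-NC. DKK3 rose by 0.48 and CXXC4, which passed the filter only through sh-CLGN, by 0.76 (1.86 with voom), while the call of CXXC5 at -0.25 turned to 0.0088 with quantile normalization and 0.015 with the GC trend removed. The call of CXXC5 was also lost as TPM (adjusted p = 0.15), with read totals (0.46) and with no filter (0.062). It was kept in 2 of the 6 fits without 1 library.

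Of 21 nuclear partners of beta-catenin, 19 were tested, 2 were called higher and 11 lower, with a median of -0.36. TBL1XR1, a subunit of a co-repressor complex that beta-catenin also recruits, rose from 5.29 ± 0.531 to 12.1 ± 0.482 FPKM (1.06, adjusted p = 1.3e-05). The co-repressor TLE1 fell from 56.4 ± 3.61 to 31.2 ± 0.652 FPKM (-0.83, adjusted p = 1.2e-05; -0.55 with quantile normalization), CTNNBIP1, which blocks the binding of beta-catenin to TCF factors, fell by 0.80 on the log2 scale, and the co-repressor CTBP1 fell by 0.75, or by 0.47 with the GC trend removed.

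Of 27 other Wnt targets, 17 were tested, 2 were called higher and 14 lower. CD44, the gene of a cell surface receptor for hyaluronan, rose from 0.880 ± 0.106 to 6.89 ± 0.0789 FPKM (2.07, adjusted p = 1.1e-06), and TNFRSF19 rose from 2.53 ± 0.375 to 7.65 ± 0.139 FPKM (1.30, adjusted p = 9.9e-06). The transcription factor gene SOX9 fell from 93.8 ± 2.07 to 36.9 ± 0.618 FPKM (-1.32, adjusted p = 1.1e-06), JUN fell by 0.99 and VEGFA by 0.88 on the log2 scale. The list leaned lower, with 82.4% of its tested genes called lower against 39.0% of all genes. Its median was -0.47 against -0.08 for all genes. Of the 10 genes themselves, 3 were called higher and 3 lower, with a median of 0.12 over the 9 tested.

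Of 17 pericentral liver genes, 9 were tested, 2 were called higher and 6 lower. GLUL, the gene of glutamine synthetase, fell from 64.8 ± 1.52 to 41.1 ± 1.08 FPKM (-0.64, adjusted p = 1.4e-05; -0.36 with quantile normalization). The cytochrome gene CYP1A1 fell by 1.03 and its regulator AHR by 1.16 on the log2 scale, whereas the ammonium transporter gene RHBG rose by 1.11 (1.82 with voom) and SLC22A3, a cation transporter gene, by 0.99. Of 15 periportal genes, 10 were tested, 4 were called higher and 5 lower, with HAL, the gene of a histidine-degrading enzyme, lower by 1.34, ALDH1B1 lower by 0.72 and APOA4 higher by 0.91. CDH1, described below with the adherens junction, was among the 4 called higher and is counted in both lists. Genes of the urea cycle lay on both sides, with ARG1 lower by 1.69 (adjusted p = 1.2e-05), ASS1 higher by 0.38 (adjusted p = 0.00063) and CPS1 higher by 0.42 (adjusted p = 0.0045). CPS1 passed the filter only through sh-CLGN. Both lists held calls in both directions.

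In the adherens junction, where beta-catenin links cadherins to the cytoskeleton, 10 of 13 genes were tested, 5 were called higher and 4 lower. CDH1, the gene of E-cadherin, rose from 26.7 ± 0.659 to 44.8 ± 0.902 FPKM (0.73, adjusted p = 8e-06), and JUP, the gene of plakoglobin, the close relative of beta-catenin, rose from 31.0 ± 2.42 to 49.4 ± 1.79 FPKM (0.66, adjusted p = 7.1e-05). AFDN rose by 0.54 on the log2 scale, while NECTIN1, NECTIN2 and CTNND1 fell by 0.97, 0.71 and 0.35. With quantile normalization NECTIN2 fell by 0.42 and CTNND1 was not called.

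Of the 178 listed genes, 65 were below the filter, and 26 of these had at most 3 reads in every library. The voom fit took in 36 of the 65 and called 12 higher and 5 lower, beside 26.1% and 25.4% of all genes in that fit. The frizzled-related inhibitor gene SFRP4 held 2 to 5 reads in sh-NC, against 14 to 28 in sh-CLGN, SOSTDC1, the gene of another secreted antagonist, 3 to 17 and 28 to 37, and the target EPHB3 12 to 29 and 51 to 65. FOSL1, a partner of JUN, held 24 to 36 reads in sh-NC, against 7 to 10 in sh-CLGN. These 4 were chosen after their values were seen.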

How the data were processed

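The data are RNA-seq profiles of 6 Hep-G2 libraries (3 with sh-NC, 3 with sh-CLGN), made with the NEBNext Ultra kit that the labels name. The authors deposited FPKM per gene and library. The submitters' processing notes name HISAT2 2.0.5, featureCounts and GRCh38, and the strand setting is not given in the sources used here. All 58735 gene positions equalled those of GENCODE 29. Overlapping and antisense genes may share reads.

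The product of FPKM and gene length was a whole multiple of 1 step in each library for 100% of values (tolerance 0.01 of a read), which gave back 14955816 to 16244639 reads per library. Molecules were not tagged, so a floor of 3 reads covers counting error alone.

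Genes that reached 1 FPKM in 3 or more libraries were tested with limma 3.58.1 in R 4.3.3 (eBayes with an intensity trend) on log2(FPKM + 1), a scale that understates changes of low genes. P-values are two-sided and were adjusted after Benjamini and Hochberg over 13074 genes. Alternatives were other pseudocounts, filters and scalings (TPM, quantile, read totals), removal of the trend with GC content, voom on the recovered reads, a replicate block, and fits without 1 library at a time. The 10 genes, the 9 pathway lists, the 5 marker lists and the tests were chosen with earlier results of these data known. From each pathway list, the 3 members with the smallest adjusted p in each direction and those past both thresholds were named, and LRP6, TCF7, CPS1 and the cell type markers besides.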

Additional observations from a re-analysis of the deposited data

How the results depend on the processing

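LGR5, LEF1, TCF7L2 and NOTUM kept their direction and their call under all 12 alternatives and without each of the 6 libraries. Most of these fits reused the filter that LEF1 passed only through sh-CLGN and NOTUM only through sh-NC, so they repeat that selection. In the limma fit with no filter the adjusted p was 0.0049 for LEF1 and 0.0064 for NOTUM. CTNNB1 turned to 0.0039 as TPM, 0.16 with quantile normalization and 0.071 with read totals, AXIN2 to -0.054 with quantile normalization, ZNRF3 to 0.0077 with read totals and 0.069 with the GC trend removed, and CXXC5 to 0.0088 with quantile normalization and 0.015 with the GC trend removed. With the GC trend removed, 5 of the 10 genes were called higher in place of 3, AXIN2 and SP5 being added. The count past both thresholds was 3 in place of 1 (LEF1 and NOTUM added) with a pseudocount of 0.1, as TPM and with either voom fit. Over all genes it was 821, against 1606 with a pseudocount of 0.1, 1426 as TPM, 1722 with voom on reads and 3845 with voom on genes holding 10 or more reads in all. The latter fit tested more genes and called 5754 genes and 40 listed pathway genes higher, in place of 3496 and 26. The cause of the other shifts was not tested. Libraries with equal replicate numbers did not deviate together (correlations of deviations -0.02, -0.05 and -0.15). With the replicate block 8038 genes were called in place of 8598, of which 7926 were shared, and of the 10 genes RNF43 and ZNRF3 lost their calls. For the 46 named pathway genes, 797 of 828 values kept direction and call, 29 lost the call and 2 reversed, within 6 genes. Members with few reads, above all NOTUM, AXIN2 and LEF1, are limited by depth. For AXIN2 and RNF43, the part of reads shared with overlapping genes on the same strand was not tested.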

Other observations

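The genes whose log2(FPKM + 1) followed AXIN2 most closely over the 6 libraries were CEBPZ (Pearson's r = 0.98), AL356299.2 (0.98) and DMRTA1 (0.96), and 42 tested genes reached an r of 0.9. Those most like CTNNB1 were LINC02041 (0.99), CNST (0.99) and MRS2 (0.99), with 318 genes at an r of 0.9 or more. CEBPZ stood at 7.07, 6.89 and 8.19 FPKM in sh-NC and at 8.58, 7.28 and 8.48 FPKM in sh-CLGN. As with AXIN2, the second sh-CLGN library was the lowest of its group and lay within the control range. MRS2, the gene of a mitochondrial magnesium channel, stood at 10.9, 11.8 and 12.2 FPKM in sh-NC and at 10.6, 10.8 and 10.4 FPKM in sh-CLGN, with the first control library nearest to the sh-CLGN libraries, as for CTNNB1. CEBPZ and MRS2 were picked for this likeness, so the shared pattern follows from the choice. These libraries share their group, depth and scaling, and the values are a description.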
